A study of Mus musculus with 80 samples.

Results

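The tumour suppressor p53 is a transcription factor that responds to DNA damage, and 35 of its target genes in mouse left ventricle are described here, with the gene for p53 itself (Trp53) counted among them. The members were taken from a list of 35 genes and kept where their mean over all libraries was at least 0.5 CPM, a count scaled to a common library size. All 35 met that limit, and all 35 passed the filter on low counts, which kept 15879 of the 56941 genes in the deposited table.

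Ionising radiation breaks DNA, and the kinases Atm and Atr then stabilise p53, which otherwise is kept scarce by its own target Mdm2. Active p53 binds pairs of short half-sites near its target genes and raises their transcription, and the products halt the cell cycle, repair DNA, start apoptosis or adjust metabolism. Cardiomyocytes of the adult heart rarely divide, and the response also runs in its endothelial cells, fibroblasts and immune cells.

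The libraries came from left ventricles of C57Bl/6J mice, 80 in all, 10 in each of 8 groups. The groups are 4 conditions in males and the same 4 in females. Sham libraries had the normal diet and 0 cGy (a centigray is a unit of absorbed radiation dose), and Western libraries had the Western diet and 0 cGy. Mixed field libraries had the normal diet and 50 cGy of a field that the labels call Mix, without its components. Gamma libraries had the normal diet and 100 cGy of gamma radiation, so field and dose differ together. Neither the age of the mice, the time since exposure nor the hour of collection is in the labels. Separate animals are not stated either, so the spread behind each p-value is that among the libraries given and may be technical. In whole tissue, fewer cells of a type and less RNA per cell cannot be told apart.

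Total counts ran from 13484776 to 22143504 per library. Summed levels of 6 cardiomyocyte markers were between 38000 and 64100 CPM in all 80 libraries. None of the 4 skeletal muscle markers passed the filter on low counts, so no level was summed for them. Atrial transcripts varied more, with summed levels up to 1900 CPM in males against at most 27.4 CPM in females, and 20 male libraries held over 10 CPM of Myl7, an atrial myosin light chain. Of these, 17 carry title numbers 1 to 20 and 3 carry 21 to 40. Each of these 2 runs of title numbers holds 5 libraries of every group, and what sets them apart is not labelled, but many genes differed between them. The library labelled female gamma replicate 7 had 0.129 CPM of Xist, a level in the range of males, but 0 CPM of the Y-linked gene Ddx3y, like the other females and unlike the males (32.3 to 111 CPM). Its Xist goes against its sex label and its Ddx3y does not. Calls of members that end without this library or without those over 10 CPM of Myl7 are named beside the results.

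The genome near the members' start sites was searched for the p53 consensus, a pair of half-sites of 10 bases with no spacer, within 3000 bases of the start of each gene's canonical transcript (GRCm39, GENCODE vM39). The closest matches are shown because they place the binding motif of p53 in the genes described below. Capitals mark the 4-base core of each half-site, and each sequence is read on the strand of its gene.

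Zmat3: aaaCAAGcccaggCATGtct
Ccng1, intron 1: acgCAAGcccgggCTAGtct
Ccng1, upstream: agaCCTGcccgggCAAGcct
Cdkn1a: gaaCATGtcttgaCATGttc
Gdf15: tgaCTTGcctgaaCTTGcct
Gtse1: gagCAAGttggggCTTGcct
Psrc1: gggCATGttgaggCATGccc
Mdm2: ggtCAAGttgggaCACGtcc

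Zmat3 held a match without mismatch, at chr3:32418480-32418499 in its intron 1, 1418 bases after the start. The 2 sites of Ccng1, at chr11:40645763-40645782 and chr11:40646289-40646308, had 1 mismatch each. The site of Cdkn1a lay upstream, at position -2827 from the canonical start (chr17:29309902-29309921), and had 1 mismatch. Gdf15 at chr8:71084616-71084635 (in the untranslated part of exon 1), Gtse1 at chr15:85744146-85744165 (intron 1) and Psrc1 at chr3:108291972-108291991 (intron 3) also had sites with 1 mismatch. The closest match of Mdm2, at chr10:117546010-117546029, had 3 mismatches. A match with no mismatch was present in 1 of the 35 members and in 0.106% of 21767 genes, and one with at most 1 mismatch in 6 members and 0.896% of genes. With up to 2 mismatches the counts were 13 members and 5.86% of genes, and with up to 3 they were 21 members and 25.8% of genes. A match is a sequence, and no binding was measured here.

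The members ranged from a mean of 763 CPM for Ccng1 to one of 0.547 CPM for Pmaip1. Levels per kilobase of exon allow for the different lengths of genes. The length is that of all annotated exons of a gene, whichever transcripts the tissue makes, so the order depends on the annotation. On this scale Ccng1 (cyclin G1, a regulator of p53 activity) was highest at 173 CPM per kb. Perp, a membrane protein of desmosomes, followed with 65.2 CPM per kb and the stress protein sestrin 1 (Sesn1) with 18.3 CPM per kb. The classical targets Mdm2, Bax and Cdkn1a had 7.86, 5.88 and 4.96 CPM per kb. Trp53 stood at 3.36 CPM per kb. At the bottom were Psrc1 with 0.238 and Pmaip1 (Noxa, a BH3-only activator of apoptosis) with 0.200 CPM per kb. Pmaip1 rested on a median of 9 counts per library and at most 18, so its changes are measured with low precision.

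**Figure D1:**
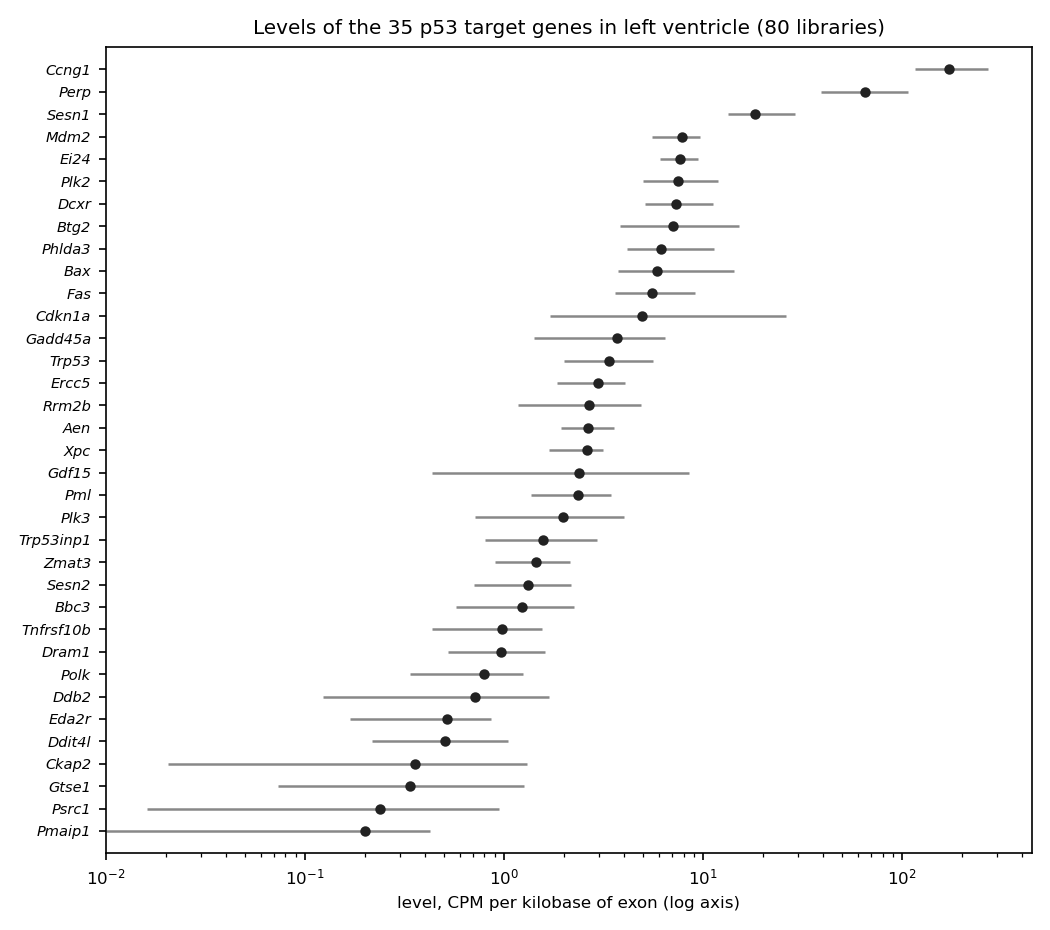
Level of each of the 35 p53 target genes, in CPM per kilobase of exon on a log axis. Points are the means of 80 libraries and lines run from the lowest to the highest library; Pmaip1, with 0 counts in its lowest library, is drawn from the left edge, and Ccng1 (173) and Perp (65.2) stand highest.

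The spread between libraries of the same group and run differed widely among the members. On the log2 scale its SD was 0.75 for Gdf15, a secreted stress cytokine, 0.64 for the spindle protein Ckap2, and 0.54 for Cdkn1a. It was 0.13 for Mdm2 and 0.12 for Ei24, a protein of the endoplasmic reticulum. A shift of a given size was thus easier to see in Mdm2 than in Cdkn1a.

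No member was called against sham under the Western diet, the mixed field or gamma radiation, in either sex. The edgeR quasi-likelihood test with Benjamini-Hochberg adjustment over all 15879 genes called 0 of 35 members in each of the 6 comparisons within a sex, and DESeq2 and limma-voom also called 0 in each. Few genes of any kind were called in these comparisons. The share of all genes called was 0.397% in males and 0.0189% in females on the Western diet, 0.0693% in males and 0.0% in females after the mixed field, and 0.176% in males and 0.0% in females after gamma radiation. All of these comparisons share the sham libraries of their sex. Averaged over the sexes, 0 members were called for any treatment by any of the 3 tools, beside 0.0% of all genes for the Western diet, 0.0% for the mixed field and 0.0% for gamma radiation. For the difference between males and females in these effects, 0 members were called by each tool, beside 0.447% of all genes for the Western diet, 0.0315% for the mixed field and 0.0% for gamma radiation.

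At an unadjusted p under 0.05, the edgeR test counted 7 of 35 members for the Western diet in males and 2 in females, where 12.8% and 7.39% of all genes had such a p. For the mixed field the counts were 5 and 2 members beside 8.17% and 6.47% of genes. For gamma radiation they were 4 and 5 members beside 5.43% and 10.3% of genes. For the means of the sexes the counts were 3, 1 and 7 members for the diet, the mixed field and gamma radiation, beside 11.4%, 5.7% and 10.9% of genes. For the differences between the sexes they were 3, 4 and 5 members, beside 9.24%, 9.0% and 5.38% of genes. The median log2 fold change over the members was close to that over all genes: 0.01 against 0.00 after gamma radiation in males, -0.07 against 0.00 in females, and 0.01 against 0.01 after the mixed field in males. After gamma radiation 18 of 35 members were on the higher side in males and 13 of 35 in females.

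**Figure D2:**
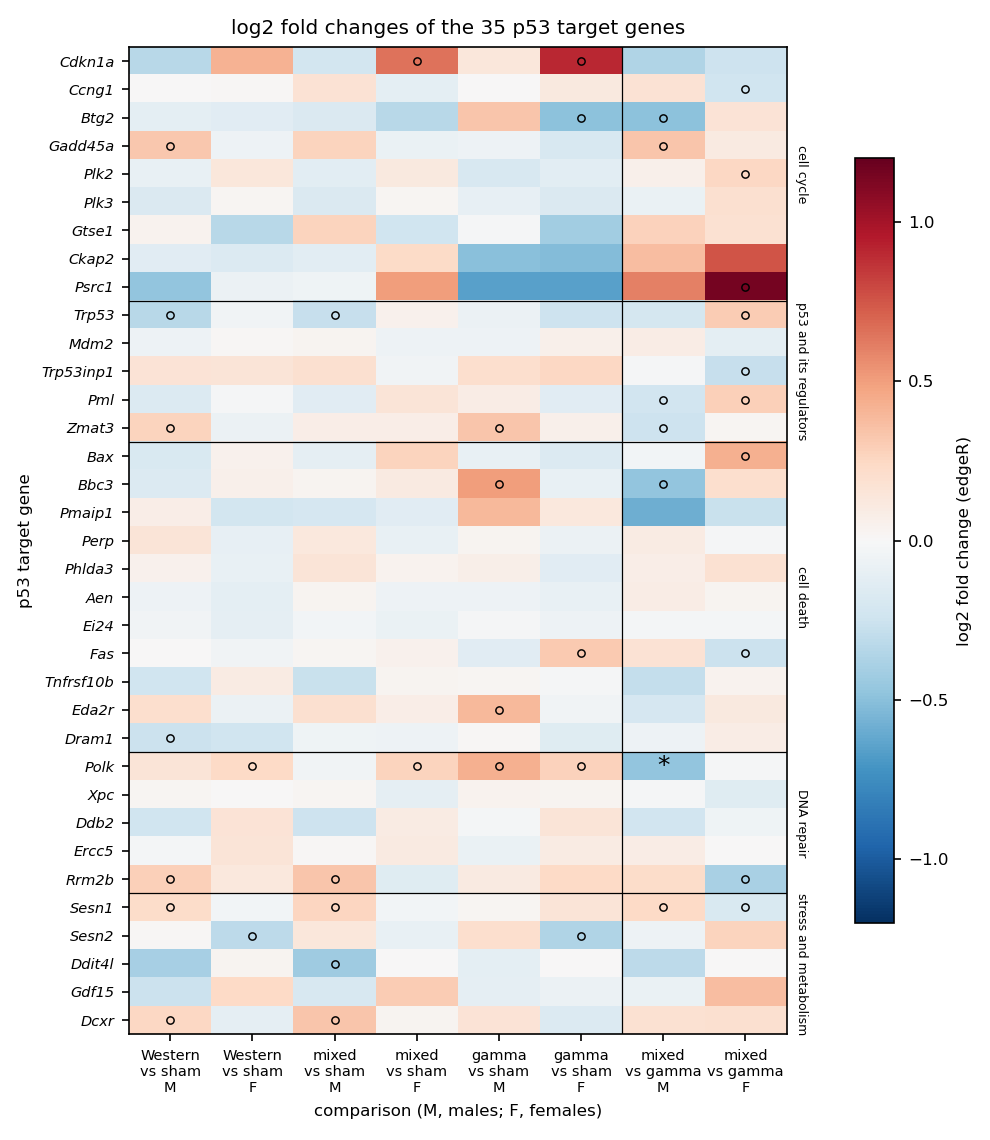
log2 fold change (edgeR) of each member, in rows ordered by role, in 8 comparisons, in columns. Red is higher and blue lower in the group named first; open circles mark an unadjusted p under 0.05 and the star an adjusted p under 0.05, which only Polk reached, in mixed field against gamma males.

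Among the genes that halt the cell cycle, Cdkn1a (ENSMUSG00000023067, chromosome 17, 29309936 to 29319701) encodes p21, the inhibitor of cyclin-dependent kinases through which p53 arrests cells. Female sham libraries had 13.1, 21.1 and 46.0 CPM as lowest, median and highest level, and gamma females had 21.7, 32.1 and 158 CPM. All 10 gamma libraries lay above the sham median, but the groups overlapped, and 1 gamma library, replicate 2, stood far above the others. The fold change was 0.90 ± 0.28 (log2, SE), with an edgeR adjusted p of 0.363. Without female gamma replicate 2 it was 0.41 with an adjusted p of 0.663. Within title numbers 1 to 20, which include that library, the fold change was 1.5, and within 21 to 40 it was 0.02.

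After the mixed field, Cdkn1a in females had 14.7, 35.6 and 69.0 CPM as lowest, median and highest level, and 9 of 10 libraries exceeded the sham median. The fold change was 0.65 ± 0.27 with an edgeR adjusted p of 0.756, and it was 1.1 within title numbers 1 to 20 and 0.11 within 21 to 40. In both irradiated female groups the higher mean thus came from 1 run of title numbers. In males, Cdkn1a averaged 27.6 ± 9.88 CPM in sham, 22 ± 16.3 on the Western diet, 23.7 ± 11.1 after the mixed field and 30.4 ± 6.63 after gamma radiation (SD, n = 10). The 95% interval of the log2 change after gamma radiation in males ran from -0.40 to 0.68, so changes within that range are not excluded. The effect of the mixed field in males minus that in females was -0.87 ± 0.39, with an edgeR adjusted p of 0.512. A higher level of Cdkn1a was not confined to irradiated females. On the Western diet, at 0 cGy, females averaged 31.5 ± 11.3 CPM (17.7 to 56.0 CPM). There too 9 of 10 libraries exceeded the sham median, which all the female comparisons share.

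Ccng1 (ENSMUSG00000020326, chromosome 11, 40639377 to 40646148), with its p53 motifs on both sides of the start, was the most abundant member. Its SD between libraries of the same group and run was 0.21 on the log2 scale, wider than the 0.13 of Mdm2. Its means were 733 CPM in sham males, 735 on the Western diet, 824 after the mixed field and 732 after gamma radiation, and 766, 770.0, 707 and 833 CPM in the same order in females. The SDs ran from 68.5 to 178 CPM. After gamma radiation the 95% interval of its log2 fold change ran from -0.19 to 0.19 in males and from -0.07 to 0.31 in females.

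Btg2, which slows proliferation, gave the opposite sign in gamma females, though it was not called. Sham females had 33.2, 50.3 and 85.9 CPM as lowest, median and highest level and gamma females 32.3, 36.2 and 43.0 CPM. All 10 gamma libraries lay below the sham median, within the range of the sham libraries or just under it. The fold change was -0.49 ± 0.19 in females (edgeR adjusted p = 0.391), and the effect in males was higher by 0.82 ± 0.26 (edgeR adjusted p = 0.482). After the mixed field it was -0.33 in females (adjusted p = 0.807) and -0.25 averaged over males and females. The microtubule protein Psrc1, with its p53 motif in intron 3, had 1.44 ± 0.597 CPM in mixed field females and 0.643 ± 0.185 CPM in gamma females. That difference of 1.15 ± 0.35 (edgeR adjusted p = 0.185) was 0.99 (adjusted p = 0.543) without female mixed field replicate 10, a library that stood apart from its group. Both values rest on few counts, a median of 12 per library for Psrc1.

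**Figure D3:**
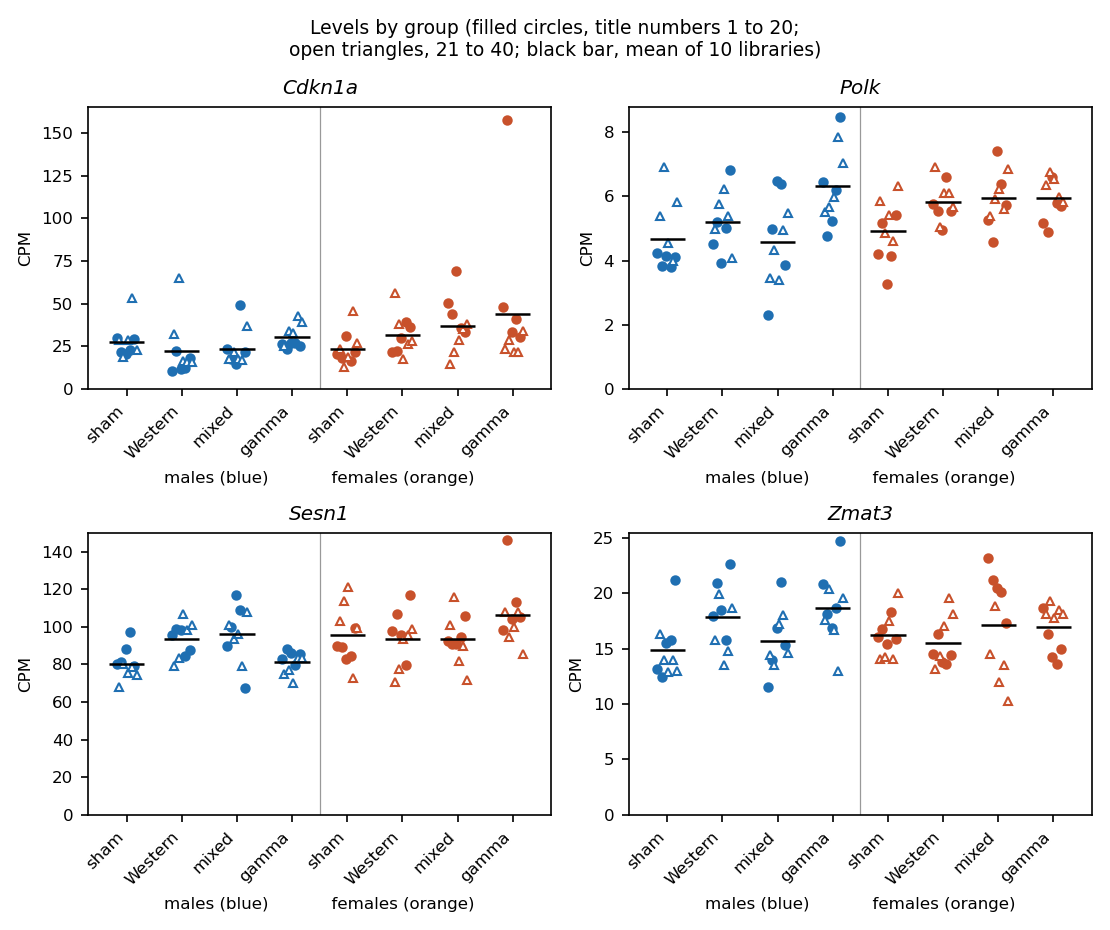
Levels in CPM of Cdkn1a, Polk, Sesn1 and Zmat3 in each of the 80 libraries, by condition, males in blue and females in orange. Filled circles are title numbers 1 to 20, open triangles 21 to 40, and bars are means of 10; the highest Cdkn1a point is female gamma replicate 2 at 158 CPM.

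Of p53 and its regulators, Trp53 encodes p53 itself, which is mainly controlled through the stability of the protein. Its means were 27.5 ± 3.55 CPM in sham males, 21.9 ± 3.26 on the Western diet, 22.5 ± 7.51 after the mixed field and 26.2 ± 4.69 after gamma radiation. In females they were 26 ± 6.01, 25.3 ± 7.55, 27.1 ± 6.82 and 22 ± 3.68 CPM. On the Western diet, males had 18.2, 21 and 28.3 CPM as lowest, median and highest level against 21.7, 28 and 33.5 CPM in sham. The ranges overlapped, with 9 of 10 Western diet libraries below the sham median, and the fold change was -0.33 ± 0.14 (edgeR adjusted p = 0.291). The mixed field males also had 9 of 10 libraries below that median, at 15.3 to 23.9 CPM, while replicate 5 had 41.7 CPM.

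Mdm2 (ENSMUSG00000020184, chromosome 10, 117524780 to 117546730) encodes the ubiquitin ligase that degrades p53 and is itself switched on by p53. Its means in males were 57.9 ± 9.1 CPM in sham, 55.4 ± 5.8 on the Western diet, 59.0 ± 6.2 after the mixed field and 55.6 ± 5.98 after gamma radiation. Female means were 64.0 ± 6.6, 64.3 ± 5.23, 61.5 ± 5.35 and 66.7 ± 3.13 CPM. None of these differences from sham passed the test, and the intervals were narrow: the log2 change after gamma radiation lay between -0.19 and 0.08 in males and between -0.07 and 0.20 in females.

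Zmat3, a zinc finger protein that binds RNA, carries the motif without mismatch. Gamma males had 13, 18.4 and 24.7 CPM as lowest, median and highest level and sham males 12.4, 14 and 21.2 CPM. Of the gamma libraries 9 of 10 exceeded the sham median, and the ranges overlapped. The fold change was 0.33 ± 0.11 (edgeR adjusted p = 0.337), and it was 0.35 and 0.31 within the first and the second run of title numbers. On the Western diet the fold change in males was 0.27 ± 0.11 (adjusted p = 0.264), with a mean of 17.9 ± 2.87 CPM. The mixed field males averaged 15.6 ± 2.7 CPM, and the female means were 16.2 ± 1.94, 15.5 ± 2.15, 17.1 ± 4.35 and 17 ± 2.02 CPM in sham, Western diet, mixed field and gamma libraries. The change as the mean of the sexes after gamma radiation was 0.20 (adjusted p = 0.368), and the diet effect in males exceeded that in females by 0.34 ± 0.15 (adjusted p = 0.465).

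Trp53inp1, a nuclear protein that enhances p53 activity, averaged 10.4, 11.6, 11.9 and 12 CPM in sham, Western diet, mixed field and gamma males and 10.9, 12.1, 10.6 and 12.9 CPM in the female groups, with SDs from 1.44 to 3.96 CPM. Its log2 changes in the 6 comparisons with sham lay between -0.04 and 0.25, and none was called.

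No member that promotes cell death was called against sham. Bax, which forms pores in the mitochondrial membrane, averaged 11.3 ± 1.88 CPM in sham males, 9.97 ± 1.33 on the Western diet, 10.4 ± 3.26 after the mixed field and 10.6 ± 2.6 after gamma radiation. Its means in females were 10.9 ± 3.26, 11.2 ± 3.39, 13.2 ± 5.85 and 9.74 ± 1.08 CPM. Mixed field females exceeded gamma females by 0.43 ± 0.16 (edgeR adjusted p = 0.237). That difference was 0.81 within title numbers 21 to 40, where it was called (adjusted p = 0.0454), and -0.04 within 1 to 20. Female mixed field replicate 10, of the second run, had the highest Bax of all libraries, 26.7 CPM. Without it the edgeR adjusted p over both runs was 0.675. The call within title numbers 21 to 40 was not repeated without that library.

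Bbc3 encodes Puma, a BH3-only protein that sets Bax free. Gamma males had 5.49, 7.47 and 10.8 CPM as lowest, median and highest level, and sham males had 3.71, 5.32 and 7.37 CPM. All 10 gamma libraries lay above the sham median, though the ranges overlapped. The fold change of 0.50 ± 0.15 was not called (edgeR adjusted p = 0.211), and it was 0.41 and 0.59 within the runs. In gamma females the mean was 5.39 ± 0.9 CPM against 5.73 ± 1.74 in sham, and the effect in males exceeded that in females by 0.59 ± 0.21 (adjusted p = 0.609).

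Fas, a death receptor, had 11.3, 14.6 and 21.3 CPM as lowest, median and highest level in gamma females and 9.98, 12.5 and 15.1 CPM in sham females. The 21.3 CPM belonged to female gamma replicate 2, the library with the highest Cdkn1a. The ranges overlapped, and the fold change was 0.31 ± 0.11 (edgeR adjusted p = 0.391), with 0.44 in the first run and 0.14 in the second. The ectodysplasin receptor Eda2r averaged 3.14, 3.60, 3.59 and 4.13 CPM in sham, Western diet, mixed field and gamma males and 4.19, 4, 4.42 and 4.06 CPM in the female groups, with SDs from 0.705 to 1.19 CPM. Its fold change in gamma males was 0.39 ± 0.17 (adjusted p = 0.813). Phlda3, which holds back the survival kinase Akt, averaged 14.9, 15.4, 16.5 and 15.7 CPM in the male groups and 16.8, 15.8, 17.4 and 15.3 CPM in the female groups, with SDs from 1.86 to 5.43 CPM. Its log2 changes against sham were between -0.14 and 0.15. Dram1, which acts in autophagy, had a fold change of -0.25 on the Western diet as the mean of the sexes (edgeR adjusted p = 0.293), with -0.24 in females (adjusted p = 0.704).

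Among the DNA repair genes, Polk was the only member called between irradiated groups. It encodes polymerase kappa, which copies past damaged bases (ENSMUSG00000021668, chromosome 13, 96617196 to 96679087). Mixed field males had 2.29, 4.64 and 6.49 CPM as lowest, median and highest level, sham males 3.81, 4.18 and 6.92 CPM, and gamma males 4.78, 6.08 and 8.48 CPM. The gamma libraries were the highest of the 3 groups, and all 3 ranges overlapped.

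Set against gamma males, Polk was lower in mixed field males, with a log2 difference of -0.47 ± 0.12 (edgeR adjusted p = 0.0428). It was 1 of 35 members called there, beside 0.573% of all genes. At an unadjusted p under 0.05 there were 7 members, beside 8.89% of genes. In females 0 of 35 were called by edgeR, DESeq2 or limma-voom, beside 0.0252% of genes, and 10 had an unadjusted p under 0.05, beside 14% of genes. The call in males held narrowly. It ended when any of 10 of the 20 libraries was left out: gamma replicates 1 (adjusted p = 0.051), 5 (0.0918), 9 (0.0805) and 10 (0.108), and mixed field replicates 1 (0.129), 2 (0.0542), 5 (0.0622), 6 (0.085), 7 (0.0778) and 8 (0.0719). Within the runs of title numbers the difference was -0.38 (adjusted p = 0.53) and -0.57 (adjusted p = 0.111). Without the 20 libraries over 10 CPM of Myl7, 6 of them gamma and 3 mixed field, it was -0.51 (adjusted p = 0.493). The gamma males left there were all of the second run and the mixed field males of both, so run was not balanced.

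Against sham males, Polk in gamma males differed by 0.43 ± 0.12 (edgeR adjusted p = 0.159), with all 10 gamma libraries above the sham median. Without male sham replicate 7 the adjusted p was 0.0486, and without male gamma replicate 10 it was 0.999. Within the runs the change was 0.63 and 0.26. In females Polk averaged 4.92 ± 0.9 CPM in sham, 5.83 ± 0.627 on the Western diet, 5.94 ± 0.824 after the mixed field and 5.96 ± 0.619 after gamma radiation. In each of these 3 female groups 9 of 10 libraries exceeded the sham median that they share, and the adjusted p was 0.668, 0.763 and 0.425. Averaged over males and females, the change after gamma radiation was 0.35 ± 0.09 (adjusted p = 0.163), with an unadjusted p of 9.03e-05, the smallest of any member in the comparisons with sham. After the diet it was 0.20 (adjusted p = 0.356).

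Rrm2b encodes p53R2, the ribonucleotide reductase subunit that supplies nucleotides for repair. Mixed field males had 11.6, 28.3 and 48.0 CPM as lowest, median and highest level and sham males 19.3, 22.7 and 28.8 CPM, so the mixed field libraries reached further in both directions. The fold change was 0.33 ± 0.12 (edgeR adjusted p = 0.432) and exceeded that in females by 0.49 ± 0.18 (adjusted p = 0.382). Between mixed field and gamma females it was -0.39 ± 0.12 (adjusted p = 0.192), with means of 22.8 ± 4.5 and 30.1 ± 1.98 CPM. On the Western diet the change as the mean of the sexes was 0.21 (adjusted p = 0.335).

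Of the stress and metabolic members, Sesn1 (ENSMUSG00000038332, chromosome 10, 41685931 to 41784423) encodes a sestrin, a stress-induced brake on the growth kinase mTORC1. Sham males had 67.8, 79.6 and 97.1 CPM as lowest, median and highest level, Western diet males 79.4, 97.0 and 107 CPM, and mixed field males 67.6, 97.9 and 117 CPM. Most libraries of both treated groups lay in the upper part of the sham range or over it, 9 of 10 and 8 of 10 above the sham median that both are set against. The fold changes were 0.22 ± 0.08 on the Western diet (edgeR adjusted p = 0.229) and 0.26 ± 0.08 after the mixed field (adjusted p = 0.285), so neither was called. Gamma males averaged 81.2 ± 5.65 CPM. In females the means were 95.6 ± 14.8, 93.4 ± 14, 93.5 ± 12.3 and 106 ± 15.9 CPM in sham, Western diet, mixed field and gamma libraries. The effect in males exceeded that in females by 0.25 ± 0.12 for the diet (adjusted p = 0.486) and by 0.29 ± 0.12 for the mixed field (adjusted p = 0.467). Mixed field against gamma males gave 0.24 ± 0.08 (adjusted p = 0.214).

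Sesn2, the second sestrin of the list, had fold changes of -0.31 on the Western diet (edgeR adjusted p = 0.629) and -0.36 after gamma radiation (adjusted p = 0.392) in females. Its gamma effect in males exceeded that in females by 0.56 ± 0.20 (adjusted p = 0.611). Dcxr, a reductase of sugars and carbonyls, averaged 8.81 ± 0.775 CPM in sham males and 11.1 ± 2.16 CPM in mixed field males, a fold change of 0.33 ± 0.11 (adjusted p = 0.300), and 0.18 as the mean of the sexes (adjusted p = 0.826). Its diet effect in males exceeded that in females by 0.36 ± 0.15 (adjusted p = 0.430). Gdf15 averaged 6.00, 5.02, 5.28 and 5.55 CPM in sham, Western diet, mixed field and gamma males and 4.88, 5.81, 6.08 and 4.68 CPM in the female groups. With SDs from 1.73 to 5.03 CPM, the 95% interval of its log2 change after gamma radiation ran from -0.83 to 0.61 in males. Plk3, another polo-like kinase, was called in no comparison, and its group means lay between 5.51 and 6.32 CPM.

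Males and females were compared over the 4 conditions with 40 libraries on each side, so the counts cannot be set against those of 10 libraries with 10. Between them, 6 of 35 members (17.1%) were called, 2 higher and 4 lower in males, where 23.3% of all genes were called. Perp (ENSMUSG00000019851, chromosome 10, 18720715 to 18732821) was higher in males. The 40 male libraries had 107, 141 and 216 CPM as lowest, median and highest level and the 40 female ones 79.1, 121 and 148 CPM. The ranges overlapped widely, and the difference was 0.26 ± 0.04 (edgeR adjusted p = 1.04e-05), with 0.25 and 0.27 within the runs. Ddit4l, an inhibitor of mTOR signalling, was also higher in males, with 0.706, 1.95 and 3.29 CPM against 0.688, 1.35 and 2.37 CPM and a difference of 0.52 ± 0.11 (adjusted p = 0.000164). It was 0.76 within title numbers 1 to 20 and 0.28 (adjusted p = 0.231) within 21 to 40.

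Lower in males were Mdm2, Sesn1, Pml and Cdkn1a. Mdm2 had 42.7, 58.8 and 70.3 CPM as lowest, median and highest level in males and 52.2, 65.0 and 74.3 CPM in females. The difference was -0.17 ± 0.03 (edgeR adjusted p = 0.000154), and it was -0.07 (adjusted p = 0.167) within title numbers 1 to 20 and -0.27 (adjusted p = 0.000135) within 21 to 40. Sesn1 averaged 87.8 ± 11.9 CPM in males and 97.2 ± 14.8 CPM in females (difference -0.15, adjusted p = 0.00549). Pml, the scaffold of nuclear bodies at which p53 is modified, differed by -0.15 (adjusted p = 0.0347), a call that ended in 13 of 80 repeats with 1 library left out, at an adjusted p of up to 0.0572 without female western replicate 6 and of 0.0547 without female gamma replicate 7, where Plk2, a polo-like kinase, was called in its place (0.15, adjusted p = 0.0415). Without the 20 libraries over 10 CPM of Myl7, the calls of Ddit4l (0.37, adjusted p = 0.056), Pml (-0.11, 0.324) and Cdkn1a (-0.22, 0.489) ended and Plk2 was again called (0.22, 0.0297). The males left there were mostly of the second run and the females of both, so sex and run were not balanced. Among the 20 sham libraries alone, 1 member was called between the sexes, Ddit4l, with 0.77 (adjusted p = 0.0435).

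The sex difference of Cdkn1a depended on single libraries and on the run. Males had 10.3, 23.1 and 64.8 CPM as lowest, median and highest level and females 13.1, 29.5 and 158 CPM, nearly the same span apart from female gamma replicate 2. The difference was -0.37 ± 0.14 (edgeR adjusted p = 0.0416). The call ended in 29 of 80 repeats with 1 library left out, with an adjusted p of 0.136 and a difference of -0.24 without female gamma replicate 2. Within title numbers 1 to 20 it was -0.73 (adjusted p = 0.000668), within 21 to 40 it was 0.04 (adjusted p = 0.889), and among sham libraries 0.23 (adjusted p = 0.661).

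The members also differed between the runs of title numbers, and not in the same way in both sexes. In males 10 of 35 members (28.6%) were called between title numbers 21 to 40 and 1 to 20, beside 28.8% of all genes. In females 6 of 35 (17.1%) were called, beside 23.2% of all genes. The run effect differed between the sexes in 10 of 35 members (28.6%), beside 25.6% of all genes. None of these shares is far from that of genes in general.

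Ddb2, a subunit of the complex that recognises ultraviolet damage, moved most in males. It had 0.542, 1.81 and 3.78 CPM as lowest, median and highest level in title numbers 1 to 20 and 1.99, 3.5 and 7.41 CPM in 21 to 40. Most libraries of the second run were above most of the first, and the ranges overlapped. The difference was 0.96 ± 0.14 (edgeR adjusted p = 1.37e-07), and it exceeded that in females by 0.84 ± 0.19 (adjusted p = 0.000678). Females had 3.30 ± 0.7 CPM in the first run and 3.58 ± 0.619 CPM in the second.

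Gadd45a, a small protein of growth arrest and DNA repair, went in opposite directions. In males it fell from 7.48 ± 1.78 to 6.22 ± 1.66 CPM (-0.25, edgeR adjusted p = 0.0466), and in females it rose from 5.42 ± 1.44 to 7.20 ± 0.87 CPM (0.42, adjusted p = 0.00121). The effects differed by -0.67 ± 0.14 (adjusted p = 0.000215). Among sham females alone the runs were nearly equal, with 5.34 to 8.08 CPM in the first and 5.76 to 8.63 CPM in the second (n = 5 each). Ercc5, the XPG endonuclease of nucleotide excision repair, rose in males (0.24, adjusted p = 0.000274) and fell in females (-0.14, adjusted p = 0.0379), and the effects differed by 0.38 ± 0.07 (adjusted p = 6.26e-05). Mdm2 fell in males from 60.9 ± 5.29 to 53.1 ± 5.98 CPM (-0.19, adjusted p = 0.000431) and had 64.2 ± 4.78 and 64.1 ± 6 CPM in the female runs. The effects on Mdm2 differed by -0.19 (adjusted p = 0.0152).

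Further members called in males were Plk2 (0.23, edgeR adjusted p = 0.00806), Tnfrsf10b, the receptor of the death ligand TRAIL (0.30, adjusted p = 0.0263), Pml (0.19, 0.043) and Gdf15 (0.63, 0.0444), all higher in the second run. Ei24 (-0.17, adjusted p = 0.000942) and the nuclease Aen (-0.14, 0.047) were lower. In females Bax (0.36, adjusted p = 0.00809), Trp53 (0.30, 0.00885), Plk2 (0.22, 0.0136) and Phlda3 (0.25, 0.0397) were higher. The run effects of Phlda3 differed between the sexes by -0.46 (adjusted p = 0.00548), those of Xpc, which senses distorted DNA, by 0.23 (0.017), and those of Cdkn1a by 0.77 (0.0243). Those of Ei24 differed by -0.16 (adjusted p = 0.0301), those of Sesn2 by -0.37 (0.0358) and those of Fas by 0.30 (0.0366).

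Several of these run calls lay near the threshold and ended when 1 library was left out. Among males, Gdf15 lost its call in 18 of 40 repeats with 1 library left out (adjusted p up to 0.128, without male sham replicate 6), Gadd45a in 19 (up to 0.0907, without male western replicate 7), Pml in 19 (up to 0.0889, without male mix replicate 1), Aen in 15 (up to 0.0832, without male sham replicate 7), and Tnfrsf10b in 1 (0.0613, without male western replicate 8). Among females, Phlda3 lost it in 15 (up to 0.11, without female sham replicate 9, and 0.0605 without female gamma replicate 7) and Ercc5 in 5 (up to 0.0638, without female sham replicate 5). Of the differences between the sexes, Sesn2 lost it in 10 of 80 (up to 0.0578, without female sham replicate 9), Fas in 6 (up to 0.0549, without female western replicate 5), Ei24 in 3 (up to 0.0574, without male gamma replicate 10), and Cdkn1a in 1 (0.0518, without female gamma replicate 2).

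**Figure D4:**
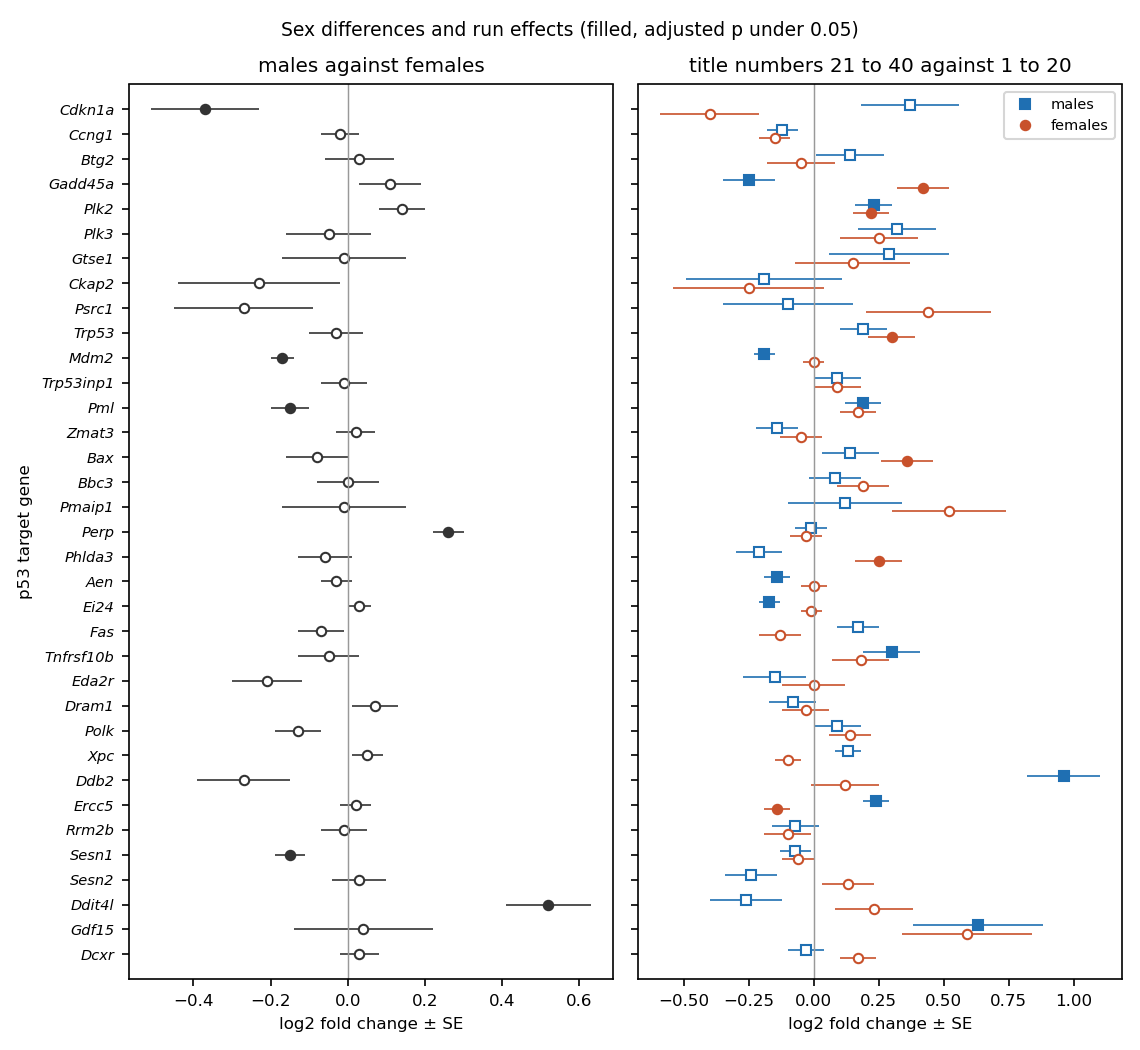
log2 fold change ± SE (edgeR) of each member, for males against females (left) and for title numbers 21 to 40 against 1 to 20 in males and in females (right). Filled symbols have an adjusted p under 0.05; Perp and Ddit4l stand to the right for sex, and Ddb2 in males at 0.96 is the largest run effect.

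Other measures moved with sex and run. The 20 libraries over 10 CPM of Myl7 are all male and 17 of them lie in the first run, and without them 1 member was called between the runs in males, Ddb2 (0.97, adjusted p = 0.0311), with 3 first-run males left. All 3 are mixed field libraries, so the male run effect in this subset came from the mixed field group alone. For the difference between the sexes in the run effect the calls were then Ddb2 (0.85, adjusted p = 0.0441), Gadd45a (-0.85, 0.033) and Psrc1 (-2.26, 0.0164). The share of counts on the ribosomal gene Rn18s-rs5 had a median of 0.351% in the first run of males and 1.65% in the second, and of 3.57% and 0.483% in females. Summed fibroblast markers had medians of 744 CPM (576 to 1070) in the first run of males and 588 CPM (371 to 749) in the second, and 650 CPM in both runs of females. Erythroid markers had medians of 183 and 389 CPM in the male runs and of 410 and 264 CPM in the female runs. Smooth muscle and pericyte markers had a median of 844 CPM (459 to 1080) in males and 696 CPM (553 to 892) in females. The part of these measures in the sex and run differences was not tested.

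Other genes of the pathway were examined in lists of their own. Of 28 tested further p53 targets, 0 were called in any comparison with sham by edgeR, with 1 to 5 at an unadjusted p under 0.05 in the 6 comparisons within a sex. DESeq2 and limma-voom called 0 in those 6. Prodh, the mitochondrial proline dehydrogenase, was higher in mixed field than in gamma males by 0.58, the 1 call there. Between the sexes 9 of 28 (32.1%) were called, 5 higher and 4 lower in males, beside 23.3% of all genes, led by Prodh at -0.42 and the sulfatase Sulf2 at 0.27. Between the runs, 6 (21.4%) were called in males, 7 (25%) in females and 7 (25%) in the difference between the sexes, beside 28.8%, 23.2% and 25.6% of all genes.

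Of 22 tested regulators and kinases of p53, Prkdc was called on the Western diet in males, 0.46 ± 0.10 (edgeR adjusted p = 0.0199). It encodes the catalytic subunit of the DNA-dependent protein kinase, which joins broken DNA ends. No other regulator was called against sham by edgeR within a sex, and DESeq2 and limma-voom each called 1 in that comparison and 0 in the other 5. After gamma radiation 2 regulators in males and 3 in females had an unadjusted p under 0.05. Between the sexes 3 of 22 (13.6%) were called, beside 23.3% of all genes: Ppp1r13l (iASPP, an inhibitor of p53) at 0.41, Mdm4 (the partner of Mdm2) at -0.30 and the kinase Atr at 0.15. Between the runs Hipk2, a kinase of p53, differed by -1.56 in males and -2.55 in females, and Mdm4 by 0.79 in males. They were among 6 regulators called between the runs in males (27.3%, beside 28.8% of all genes) and 7 in females (31.8%, beside 23.2%), and 4 were called in the difference between the sexes (18.2%, beside 25.6%).

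Genes of proliferation that are repressed when p53 and p21 are active had fold changes below 0 in gamma females, and none was called. This held for all 17 tested, with a median of -0.63 beside 0.00 for all genes. The edgeR test called 0 of 17, as did DESeq2 and limma-voom, and 9 had an unadjusted p under 0.05 by edgeR, beside 10.3% of all genes. Much of this rested on 1 sham library, female sham replicate 9, which stood apart for cell cycle genes: without it the median was -0.39, 16 of 17 were below 0 and 1 had an unadjusted p under 0.05. Leaving out any other library of the 2 groups gave a median from -0.73 to -0.53, 5 to 12 genes at such a p, and 0 calls. The smallest p belonged to the replication helicase subunit Mcm5 (-0.71, adjusted p = 0.325). Cdk1, the kinase of mitosis, had -1.09. In gamma males 2 of 17 were on the higher side and the median was -0.13. The difference between the sexes was 0 of 17 called by each tool, with 2 at an unadjusted p under 0.05 by edgeR. The cell cycle members Gtse1, Ckap2 and Psrc1 had fold changes of -0.42, -0.52 and -0.65 in gamma females, and of -0.03, -0.13 and -0.56 without that sham library, none of them called. Genes of this kind go up and down together in cycling cells, so the 17 are not independent of each other.

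Cdkn1a is also controlled outside the p53 pathway, by glucocorticoid hormone and by the circadian clock, and it was compared with 10 genes over the 80 libraries after the mean of each group and run was removed. Pearson's r was highest with Fkbp5, a target of the glucocorticoid receptor (Pearson r = 0.65, adjusted permutation p = 0.0001; Spearman rho = 0.49, adjusted p = 0.0003). The clock factor Bmal1 had r = 0.62 (adjusted permutation p = 5e-05; rho = 0.59, adjusted p = 5e-05), and the clock output gene Dbp had r = -0.56 (adjusted p = 0.00025; rho = -0.38, adjusted p = 0.00447). The p-values were adjusted over the 10 relations, and the smallest a permutation can give before that is 1e-05.

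Among the p53 targets, Phlda3 followed Cdkn1a (r = 0.54, adjusted permutation p = 5e-05; rho = 0.55, adjusted p = 5e-05). Gadd45a ran against it (r = -0.41, adjusted p = 0.00676; rho = -0.27, adjusted p = 0.0516). For Mdm2 r was -0.13 (adjusted p = 0.393), for Ccng1 -0.19 (0.182), for Zmat3 0.05 (0.761), for Eda2r -0.03 (0.778) and for Sesn1 -0.23 (0.182). The Spearman rho of Sesn1 was -0.34 (adjusted permutation p = 0.0179). Without the 2 libraries farthest from the median of Cdkn1a, male western replicate 7 and female gamma replicate 2, r was 0.51 for Fkbp5, 0.62 for Bmal1, -0.44 for Dbp, 0.63 for Phlda3, -0.25 for Gadd45a and -0.35 for Sesn1. By this measure and by Spearman's rho, Bmal1 and Phlda3 thus stood above Fkbp5.

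Within title numbers 1 to 20 and 21 to 40 (n = 40 each), r with Cdkn1a was 0.76 and 0.55 for Fkbp5, 0.57 and 0.65 for Bmal1, -0.70 and -0.43 for Dbp, 0.30 and 0.70 for Phlda3, and -0.55 and -0.27 for Gadd45a. For Sesn1 it was 0.18 and -0.55, opposite in sign. Bmal1 itself moved with group. It rose on the Western diet in females by 1.66, the 1 clock or glucocorticoid gene of 20 called there by edgeR (DESeq2 called 3 and limma-voom 0). In the other female groups its fold change was 1.52 after gamma radiation (edgeR adjusted p = 0.142) and 1.14 after the mixed field (adjusted p = 0.652), neither called by edgeR, though DESeq2 called the first. The effect in males minus that in females was -2.90 for the diet (adjusted p = 7.82e-05) and -2.51 for the mixed field (adjusted p = 0.0124), and mixed field males differed from gamma males by -1.93 (adjusted p = 0.000364). Of the 20 genes, edgeR called 8, 1 and 7 in these last 3 comparisons, DESeq2 10, 2 and 9, and limma-voom 9, 0 and 6. Of all genes, edgeR called 0.447%, 0.0315% and 0.573% there. Bmal1 fell by 1.10 between the runs in females, where Cdkn1a was lower in the second run without being called (-0.40 ± 0.19). The labels give no hour of collection, and the part of the clock in the levels of Cdkn1a was not tested.

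**Figure D5:**
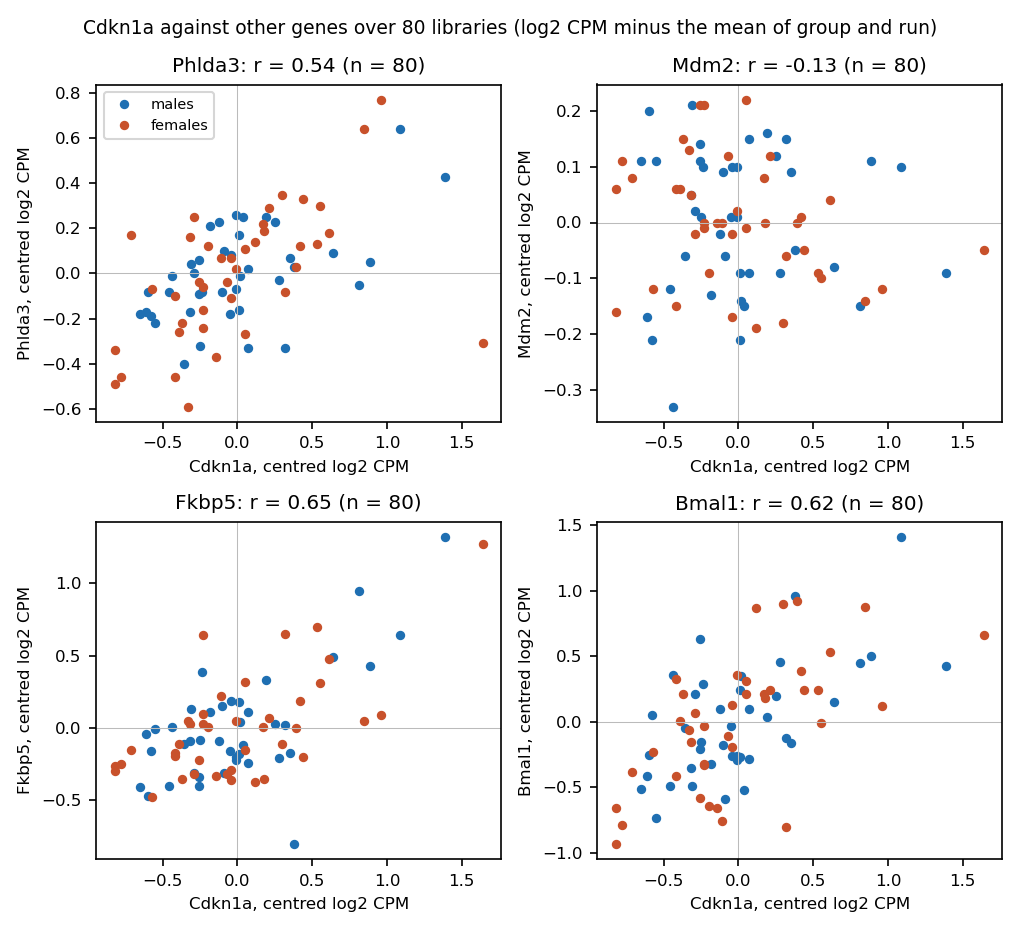
Log2 CPM of Phlda3, Mdm2, Fkbp5 and Bmal1 against that of Cdkn1a in 80 libraries, each minus the mean of its group and run, males in blue and females in orange. Fkbp5 (r = 0.65), Bmal1 (r = 0.62) and Phlda3 (r = 0.54) rise with Cdkn1a, and Mdm2 (r = -0.13) does not.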

How the data were processed

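RNA was measured by poly-A selected, paired-end RNA sequencing, per the labels' protocols. The submitters' processing notes name STAR 2.7.8a, FastQC 0.11.9 and the GRCm39 (mm39) genome. How reads were counted, with which strand setting and annotation, is not given in the sources used here. Overlapping or antisense genes may therefore share reads. The table deposited by the authors holds raw counts per Ensembl gene for 80 libraries. Of 56941 genes, 56323 matched GENCODE vM39, which gave symbols and coordinates.

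From these counts, levels were computed as CPM with TMM-adjusted library sizes (factors from 0.868 to 1.14). The filter filterByExpr, given the groups, kept 15879 genes, which hold 99.82% or more of the counts in every library. A single model (edgeR 4.0.16, R 4.3.3) with 1 coefficient per group was fitted to all 80 libraries. A gene was called at a quasi-likelihood p under 0.05 after Benjamini-Hochberg adjustment over all genes. The common dispersion was 0.0415, a biological coefficient of variation of 20.4%. Run effects came from a fit with 1 run term per sex. The 95% intervals are normal ones from the SE. Levels are mean ± SD and differences are log2 values ± SE.

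Relations of Cdkn1a used log2(CPM + 0.5) minus the mean of each of 16 cells of group and run, with 100000 permutations within cells, two-sided. Alternatives were DESeq2 1.42.0, limma-voom (limma 3.58.1), other size factors, no filter, a run term, each run alone, libraries left out, sham libraries only, and title number as a block. The difference between the sexes in the run effect was added after the run effects had been seen, and the proliferation genes with single libraries left out after female sham replicate 9 was seen to stand apart.

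The members and gene lists were chosen with earlier results of these data known. Named in full are every member called anywhere, the 3 members of smallest p in each comparison, and Cdkn1a, Mdm2, Ccng1, Bax, Zmat3, Phlda3, Trp53inp1, Eda2r, Sesn1, Gdf15 and Trp53. Genes outside the members are named where they were called or among the 3 of smallest p in their list, or as partners of Cdkn1a. A further list of 12 immediate early genes had 0 calls by edgeR against sham within a sex and 5 between the sexes (41.7%, beside 23.3% of all genes).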

Additional observations from a re-analysis of the deposited data

Results flagged for a closer look

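In each of the 280 sets formed by 1 member and the 10 libraries of 1 group, the highest and the lowest library were compared with the nearest of the others by Dixon's criterion. A library stood apart in 31 sets, each time as the highest. For normally distributed values the criterion picks out about 1 in 20 sets. It was applied to CPM without a log, and its rate for such levels was not worked out. The 31 sets can therefore not be set against 1 in 20. Neighbouring members rest on the same libraries, so these are not independent events.

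Female gamma replicate 2 stood apart for 3 members, with 158 CPM of Cdkn1a (the other 9 had 21.7 to 47.8), 146 CPM of Sesn1 and 26.3 CPM of Ercc5. It also had the lowest Gadd45a (2.51 CPM), the lowest Trp53 (14.8 CPM) and the highest Fas (21.3 CPM) of all libraries. Its Mdm2, at 63.4 CPM, lay within the range of the other gamma females (60.5 to 71.6 CPM). Male western replicate 7 stood apart with 64.8 CPM of Cdkn1a, 13.7 CPM of Gdf15 and 7.65 CPM of Dram1, and male sham replicate 9 with 53.3 CPM of Cdkn1a.

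Male mix replicate 5 stood apart for the spindle and cell cycle genes Gtse1 (3.46 CPM), Ckap2 (3.99 CPM) and Psrc1 (3.64 CPM) and for Trp53 (41.7 CPM). Female sham replicate 9 did so for Gtse1 (4.29 CPM), Ckap2 (4.23 CPM), Trp53 (39.3 CPM) and Bax (19 CPM). Female mix replicate 2 stood apart for Gtse1 (2.06 CPM) and Sesn2 (9.04 CPM), and female mix replicate 10 for Psrc1 (2.84 CPM).

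Btg2 reached 71.1 CPM in male mix replicate 8, 92.8 CPM in male sham replicate 8 and 95 CPM in female western replicate 4. Male western replicate 5 stood apart for Trp53inp1 (17.1 CPM) and Eda2r (6.46 CPM), and male gamma replicate 10 for Trp53inp1 (21.7 CPM). Male sham replicate 6 stood apart for Bax (15.8 CPM) and Gdf15 (19.2 CPM). Single sets also gave male sham replicate 5 for Zmat3 (21.2 CPM), male mix replicate 4 for Phlda3 (29.2 CPM), male western replicate 8 for Tnfrsf10b (8.86 CPM), male sham replicate 10 for Pmaip1 (0.898 CPM) and female western replicate 7 for Dcxr (12.9 CPM).

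The change between title numbers 21 to 40 and 1 to 20 differed between the sexes in 10 members by edgeR's test of the difference. Males minus females, the log2 values were 0.38 for Ercc5, -0.67 for Gadd45a, 0.84 for Ddb2, -0.46 for Phlda3, -0.19 for Mdm2, 0.23 for Xpc, 0.77 for Cdkn1a, -0.16 for Ei24, -0.37 for Sesn2 and 0.30 for Fas. This comparison was added after the run effects had been seen.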

How the results depend on the processing

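The count of 0 members called against sham, for each treatment in each sex, as the mean of the sexes and as their difference, was the same under every alternative run, with 1 exception: Polk was called in gamma males without male sham replicate 7 (0.51). Leaving out 1 library at a time gave 0 to 1 called members for gamma males and for mixed field against gamma males, 4 to 8 for males against females, and for the runs 6 to 12 in males, 4 to 8 in females and 8 to 11 for the difference between the sexes.

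For mixed field against gamma males the count was 0 without the low-count filter, within each run alone, and without the libraries over 10 CPM of Myl7. In females it was 1, Bax, within title numbers 21 to 40. Males against females gave 1 among sham libraries only, 4 without the filter, 4 without the Myl7 libraries, 7 with DESeq2 and 8 with limma-voom. The run counts were 1 (males), 0 (females) and 0 (difference) among sham libraries, and 1, 6 and 3 without the Myl7 libraries. The sham, single-run and Myl7 alternatives test fewer libraries, and the Myl7 one leaves first-run males of the mixed field only. For the counts without the filter, with DESeq2 and with limma-voom the cause was not tested. The shares of all genes called under the alternatives, single libraries left out included, are not given here. These counts therefore show only how calls of members vary with the processing.

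Signs turned for Sesn1 in the diet effect of males minus females (-0.02, title numbers 1 to 20), Dcxr after the mixed field as the mean of the sexes (-0.02, same run), Bax between mixed field and gamma females (-0.04, same run), Cdkn1a between the sexes (0.04 in title numbers 21 to 40, 0.23 in sham), Gadd45a between the runs of females (-0.01, sham) and Xpc for the run difference between the sexes (-0.01, sham). Of the other values of single members under alternatives that keep or drop several libraries or change the method, 651 kept direction and side of the threshold, 72 lost a call and 1 gained one.

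Of 40 same-numbered male and female pairs, 4 correlated over 0.1 (median r = 0.0173), and 5 correlated best with their own number. No pairing of the sexes by title number was seen in this way, though weak correlation over all genes cannot exclude it. With title number as a replicate block, 9 members were called between the sexes and 0 for the differences in treatment effects. The share of all genes called in that fit is not given here, so the 9 cannot be read as particular to the members. Pmaip1, Psrc1, Gtse1, Ckap2 and Ddit4l rest on the fewest counts, with medians from 9 to 24 per library. Gdf15, Ckap2 and Cdkn1a had the widest spread between libraries. How much of any spread is counting error was not tested.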
